A study of Homo sapiens with 6 samples.

Results

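Each of the 3 groups of this RNA-seq study of HCT116, a human colorectal carcinoma cell line, holds a library whose count column begins with HCT116 and a library whose column begins with HCT. The 3 HCT116 libraries (WT, KO1 and KO2) were compared with the 3 HCT libraries (WT, KO1 and KO2), so that all 6 libraries of the series entered the comparison. Values of 3 libraries are given in the order WT, KO1 and KO2 throughout. Genes were taken when listed for both guides and read at least 60 times in the 6 libraries together, which holds for 12429 of 15284 genes. KO1 and KO2 are cells that received Cas9 and the guide KO1 or KO2 against MUC3A, a membrane mucin, from the lentiCRISPR v2 vector. WT carries the labels wild type (genotype) and negative control (treatment); the control line that the protocol describes received virus with a scrambled sequence. Infection was at a multiplicity of 10 and was followed by 72 h of puromycin at 2 µg/mL; no cloning step is described, so each line may be a mixture of edits. All cells grew in McCoy's 5A medium with serum, and poly(A) RNA was sequenced after size selection and PCR of the fragments. The design text calls HCT116-WT and HCT-WT the control group of this line. No label says what these prefixes stand for (a culture, an extraction, a sequencing run). The sets are therefore called by their prefix, and since separate cultures are not stated, the spread that the p-values rest on may be technical.

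Cells short of oxygen stabilise the transcription factor HIF, which prolyl hydroxylases otherwise mark for destruction, and HIF then raises genes for glucose uptake, glycolysis, mitophagy and angiogenesis. Proliferating cells raise replication genes through E2F factors before they copy their DNA, and they make ribosomes, respiratory chain subunits and proteasomes from many genes that tend to vary together. Reads from genes of unlike base composition and length can be recovered unequally between libraries, so both properties are given beside the gene lists.

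The 6 libraries held 13638724 to 17829599 counts over the shared genes, with the most in KO2 of the HCT set. Replicate libraries of 1 group were far from copies of each other. Chi-square per degree of freedom between them came to 149.6, 125.6 and 97.2 (WT, KO1, KO2). The common biological coefficient of variation was 0.118 with the group and the set in the model, against 0.199 with the set alone. Both models hold the set, so these coefficients do not measure how far apart the libraries of a group lie. MUC3A itself was at 52.3, 52.5 and 30.0 CPM (reads scaled to a common library size by TMM) in the HCT set and at 25.7, 28.5 and 24.5 CPM in the HCT116 set. Every HCT116 library was below every HCT library, by 1.66-fold (log2 difference -0.73, SE 0.15, edgeR quasi-likelihood adjusted p 0.00089). The KO1 libraries were not below the WT library of their set, so the groups are called by their labels throughout. Epithelial markers were abundant in both sets. EPCAM had at least 3180 reads in each library, and the 11 of 13 listed epithelial markers that the tables hold summed to 5762 to 9411 CPM in the HCT set and to 9146 to 15595 CPM in the HCT116 set. Of the intestinal markers, CDX1 had 2 reads and VIL1 7 reads in all 6 libraries together. Leukocyte markers summed to 19.8 to 37.7 CPM in HCT and 27.1 to 36.0 CPM in HCT116, mostly from CD68 and CORO1A, while PTPRC, the pan-leukocyte gene CD45, had 2 reads in all. Fibroblast markers summed to 79.3 to 84.5 CPM in HCT and 52.5 to 71.8 CPM in HCT116, mostly from COL1A1 and ACTA2, with 1 read of DCN in all. Markers of HEK293T, the line in which the virus was packaged, summed to 47.5 to 62.8 CPM in HCT and 69.1 to 79.6 CPM in HCT116, without overlap. Most of these reads came from PAX2, PAX8, CHD5 and TBX18, with 8 reads of LHX1 and 2 of NEFL in all. PAX2 was at 10.8, 9.45 and 18.4 CPM in HCT and 24.3, 21.4 and 29.4 CPM in HCT116 and PAX8 at 8.33, 8.59 and 10.6 CPM and 12, 15.5 and 13.6 CPM, both higher in HCT116 without overlap (edgeR adjusted p 0.00013 and 0.011), while CHD5 and TBX18 did not pass. The part of these markers in the results was not tested.

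The set difference was wide and was shared by the 3 groups. With the group as a block, edgeR's quasi-likelihood test with Benjamini-Hochberg adjustment called 8077 genes at 0.05, 65.0% of those tested. Of these, 4096 were higher in HCT116 (33.0%) and 3981 lower (32.0%). A difference of 2-fold or more was called for 1196 genes higher (9.62%) and 1303 genes lower (10.5%). In 8001 of the 8077 genes the difference had the same sign in the WT, KO1 and KO2 pairs, a pair being the HCT116 library over the HCT library of 1 group. All 3 HCT116 libraries were above all 3 HCT libraries for 3906 of the genes tested (31.4%) and below them for 3725 (30.0%). The share of 2-fold calls that were higher was 47.9%; with upper quartile factors in place of TMM it was 35.2%, and the median over all genes moved from -0.0074 to -0.12 on the log2 scale. Differences below are given relative to the TMM scale. The shares called over all genes, 33.0% higher and 32.0% lower, are the background for list counts of this fit below. For counts of 2-fold or more the background is 9.62% higher and 10.5% lower. For counts with the offset for GC content and length it is 28.0% higher and 22.1% lower.

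The KO2 pair was the closest. Log2 differences had an SD over genes of 0.947 in the WT pair, 0.867 in the KO1 pair and 0.682 in the KO2 pair, and 5% to 95% of genes lay between -1.57 and 1.45, between -1.44 and 1.32 and between -1.08 and 1.08 in that order. Across the 12429 genes, which are not independent replicates, the pairs correlated at Pearson's r of 0.882 (WT and KO1), 0.834 (WT and KO2) and 0.798 (KO1 and KO2). Each pair has its own 2 libraries, so these values share no library.

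GC-rich and short genes were higher in the HCT116 libraries, and AT-rich and long genes higher in the HCT libraries. Genes were cut into 5 equal bins by the GC content of their exons. The median log2 difference (HCT116 over HCT) was -0.55 in the lowest bin (30.2% to 41.0% GC), then -0.34, -0.043 and 0.34, and 0.65 in the highest bin (58.7% to 74.4% GC). In the highest bin 1617 genes were called higher and 118 lower; in the lowest bin 171 were called higher and 1567 lower. By exon length the medians ran from 0.54 in the shortest bin (207 to 2960 bases) to -0.54 in the longest (8325 to 118976 bases). Both orders held in each pair. Within each bin of GC content the median still decreased with length: in the lowest GC bin it went from -0.0072 in the shortest genes to -0.79 in the longest, and in the highest from 0.87 to 0.22. Across genes the difference correlated with GC content at r = 0.541 and with log2 exon length at r = -0.432, and with the mean log2 CPM at r = 0.230.

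**Figure D1:**
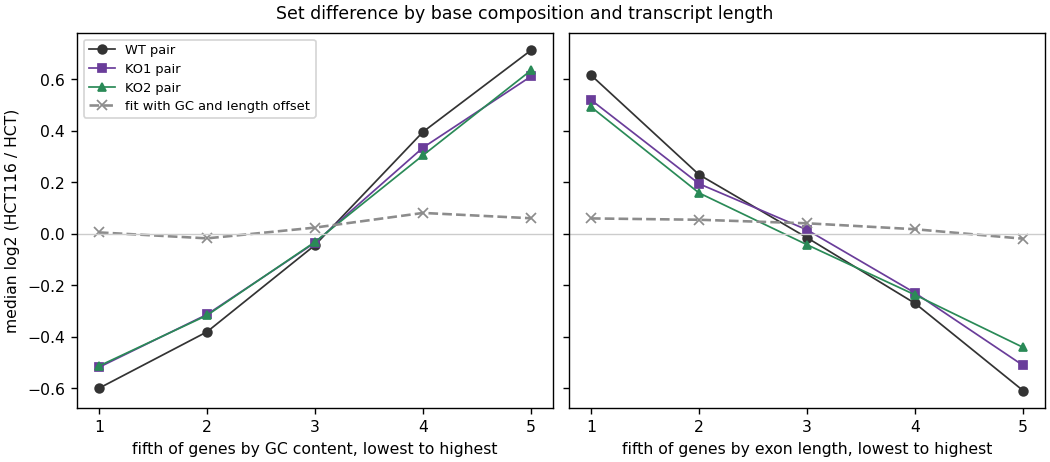
Median log2 difference (vertical axis, HCT116 over HCT) in 5 equal bins of the genes by GC content (left) and exon length (right), for the WT, KO1 and KO2 pairs (lines) and for the fit with an offset for GC content and length (dashed crosses). The 3 pairs follow the same slope from -0.55 to 0.65 over the GC bins of the joint fit, and the crosses of the GC bins lie between -0.017 and 0.081.

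The same gradient was in the composition of the libraries. The mean GC content of the genes, weighted by counts, was 49.4% to 49.8% in the HCT set and 51.4% to 52.0% in the HCT116 set, with no overlap. Weighted exon length was 4551 to 4856 bases in HCT and 4221 to 4373 bases in HCT116. Transcripts of cytoplasmic ribosomal proteins took 5.14% to 5.65% of counts in HCT and 6.77% to 7.30% in HCT116. Along chromosomes, medians over 31 neighbouring genes had an SD of 0.441, and this fell to 0.169 with an offset that removes each library's trend on GC content and length. The lowest window, centred on PAWR on chromosome 12, had a median of -0.94 (-0.26 with the offset), and the highest, centred on SBK3 on chromosome 19, 1.13 (0.38 with the offset). With the offset 3484 genes were called higher (28.0%) and 2752 lower (22.1%). Trends on other properties remained with the offset. Its medians ran from -0.33 in the least expressed bin of genes to 0.22 in the most expressed. By gene span, introns included, they ran from 0.18 in the shortest bin to -0.23 in the longest. The value with the offset is given below beside the main one for most lists. How much of a list's difference belongs to composition, level or span was not tested.

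The genes with the largest differences came from several classes. SLC2A3, the glucose transporter GLUT3, was at 64.6, 78.4 and 18.6 CPM in the HCT libraries and at 4.11, 6.55 and 3.44 CPM in the HCT116 libraries. The sets did not overlap, and the level was 10.4-fold lower in HCT116 (log2 difference -3.38, SE 0.23, edgeR adjusted p 1.6e-06). LSM7, a subunit of the ring that binds U6 small nuclear RNA, was at 24.5, 21.7 and 33.3 CPM in HCT and at 191, 143 and 117 CPM in HCT116. POLR2L, a small subunit shared by the nuclear RNA polymerases, was at 30.8, 36 and 43.8 CPM in HCT and at 252, 230.5 and 164 CPM in HCT116. Neither gene overlapped between the sets, and the differences were 5.61-fold and 5.8-fold. TMEM238, a short gene with 73.7% GC in its exons, was 6.42-fold higher, and the log2 difference went from 2.68 to 1.36 with the offset. Among genes with the most reads, FTL (ferritin light chain), PFN1 (profilin) and CFL1 (cofilin, an actin-severing protein) were higher, and FAT1, KITLG and AHNAK were lower. FAT1, an atypical cadherin, was at 1920.1, 1533 and 1093 CPM in HCT and at 703, 666 and 719 CPM in HCT116. KITLG, the ligand of the KIT receptor, was at 1515, 1235 and 1025 CPM in HCT and at 464, 522 and 519 CPM in HCT116. In both, all 3 HCT116 libraries lay below all 3 HCT libraries.

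Genes induced by hypoxia were lower in the HCT116 libraries and had the lowest median of any list or family here with at least 5 genes tested. Of 30 genes, 27 were called lower and 0 higher, 16 of them lower by 2-fold or more. The 4 promoters printed first belong to the hypoxia-induced genes with the largest differences that the RefSeq table holds. They are shown because HIF binds a short core, ACGTG or GCGTG, in such promoters. Each is the reference sequence of the 250 bases before the start site, 5′ to 3′ on the gene's strand (RefSeq, GRCh38.p14), with matches to the core on either strand in capitals. They lie at chr2:86441121-86441370 (KDM3A, plus strand), chr19:8363905-8364154 (ANGPTL4, plus strand), chr4:185396591-185396840 (ANKRD37, plus strand) and chr10:73096867-73097116 (P4HA1, minus strand).
KDM3A: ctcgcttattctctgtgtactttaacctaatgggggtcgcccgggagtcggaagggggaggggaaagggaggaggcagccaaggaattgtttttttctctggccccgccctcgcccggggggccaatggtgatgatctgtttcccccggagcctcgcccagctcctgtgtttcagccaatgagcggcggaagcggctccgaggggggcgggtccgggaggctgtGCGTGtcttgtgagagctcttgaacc
ANGPTL4: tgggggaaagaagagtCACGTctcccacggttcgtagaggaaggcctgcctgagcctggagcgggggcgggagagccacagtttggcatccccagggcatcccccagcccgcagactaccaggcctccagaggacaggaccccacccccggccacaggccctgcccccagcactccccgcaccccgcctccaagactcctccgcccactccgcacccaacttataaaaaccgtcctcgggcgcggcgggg
ANKRD37: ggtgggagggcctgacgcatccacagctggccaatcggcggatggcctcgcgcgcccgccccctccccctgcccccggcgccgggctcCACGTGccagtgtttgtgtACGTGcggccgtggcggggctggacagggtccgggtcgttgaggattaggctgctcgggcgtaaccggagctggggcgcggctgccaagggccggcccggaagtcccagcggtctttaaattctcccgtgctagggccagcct
P4HA1: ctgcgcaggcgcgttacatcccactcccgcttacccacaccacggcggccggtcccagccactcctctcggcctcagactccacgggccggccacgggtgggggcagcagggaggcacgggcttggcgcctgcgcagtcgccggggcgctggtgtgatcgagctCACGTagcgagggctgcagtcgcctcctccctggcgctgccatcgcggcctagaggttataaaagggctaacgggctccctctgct
The first base of a match lay at -26 from the start site in KDM3A, at -234 in ANGPTL4, at -162, -161 and -143 in ANKRD37 and at -86 in P4HA1. A match to the core was found in 21 of the 26 hypoxia genes with a promoter in the table (80.8%), in 57.3% of the 9803 tested genes with one and in 43.1% of all 27305 promoters. These windows were also GC-rich, at 68.1% in the hypoxia genes and 64.6% over the tested genes. Genes lower by 2-fold or more held the core in 54.8% and genes higher by 2-fold or more in 57.7%. A match is a description of the sequence and does not show a bound site.

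The induced genes had the largest differences. KDM3A, a histone demethylase, was at 184, 226 and 112 CPM in the HCT libraries and at 31.8, 34.5 and 33 CPM in the HCT116 libraries. Its difference was 5.05-fold (log2 -2.34, SE 0.16, edgeR adjusted p 1.6e-06). ANGPTL4, a secreted inhibitor of lipoprotein lipase, was at 77.8, 116 and 39.4 CPM in HCT and at 13.5, 14.1 and 14.9 CPM in HCT116. All 3 HCT116 libraries of both genes were close to each other, and the spread lay in the HCT set, with KO1 the highest and KO2 the lowest. NDRG1, a stress-induced cytoplasmic protein, showed the same order, with 695, 922 and 307 CPM in HCT and 112, 114 and 141 CPM in HCT116 (4.8-fold lower, edgeR adjusted p 2e-05). P4HA1, a collagen prolyl hydroxylase, was at 198, 288 and 124 CPM in HCT and at 41.9, 47.8 and 45.6 CPM in HCT116. BNIP3L, a mitophagy receptor, was at 176, 221 and 117 CPM in HCT and at 36.7, 44.2 and 41 CPM in HCT116, and its relative BNIP3 was at 127, 186 and 63.7 CPM and 47.9, 50.9 and 38.6 CPM. None of these genes overlapped between the sets. ANKRD37, a small ankyrin-repeat protein, was at 36.4, 51.4 and 10.7 CPM in HCT and at 5.97, 5.93 and 7.08 CPM in HCT116. In the KO2 pair it differed by only 1.5-fold, against 5.98-fold in the WT pair.

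Of the 24 induced genes, 23 were lower, with a median of -1.17. VEGFA, the main angiogenic growth factor, was at 68.8, 81 and 55.7 CPM in HCT and at 43.6, 46.2 and 34.1 CPM in HCT116, without overlap (log2 -0.73, edgeR adjusted p 9.7e-05). SLC2A1, the glucose transporter GLUT1, was at 896, 1216 and 767 CPM in HCT and at 533, 762 and 639.7 CPM in HCT116. CA9, a carbonic anhydrase much used as a marker of hypoxia, was low throughout, at 2.00, 0.466 and 10.7 CPM in HCT and 1.29, 0.385 and 3.92 CPM in HCT116, and its sets overlapped. ADM (adrenomedullin) was the induced gene that did not pass, at log2 -0.44 and edgeR adjusted p 0.086; its pairs were -0.38, -1.23 and 0.31. Within the HIF pathway 4 of 6 genes were lower. EGLN3, an oxygen-sensing prolyl hydroxylase that HIF itself induces, was at 31.8, 42.9 and 15.7 CPM in HCT and 7.26, 10.2 and 6.19 CPM in HCT116. EPAS1, which encodes HIF-2 alpha, was at 96.7, 133 and 43.7 CPM and 31.1, 48.2 and 21 CPM, with overlap, the KO2 library of the HCT set being below the KO1 library of the HCT116 set. HIF1A, the alpha subunit of HIF-1, was at 202, 174 and 188 CPM in HCT and at 107, 98.5 and 111 CPM in HCT116, without overlap. HIF1AN, the asparagine hydroxylase that restrains HIF, and VHL, which binds hydroxylated HIF, did not pass, at log2 0.045 and -0.19.

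**Figure D2:**
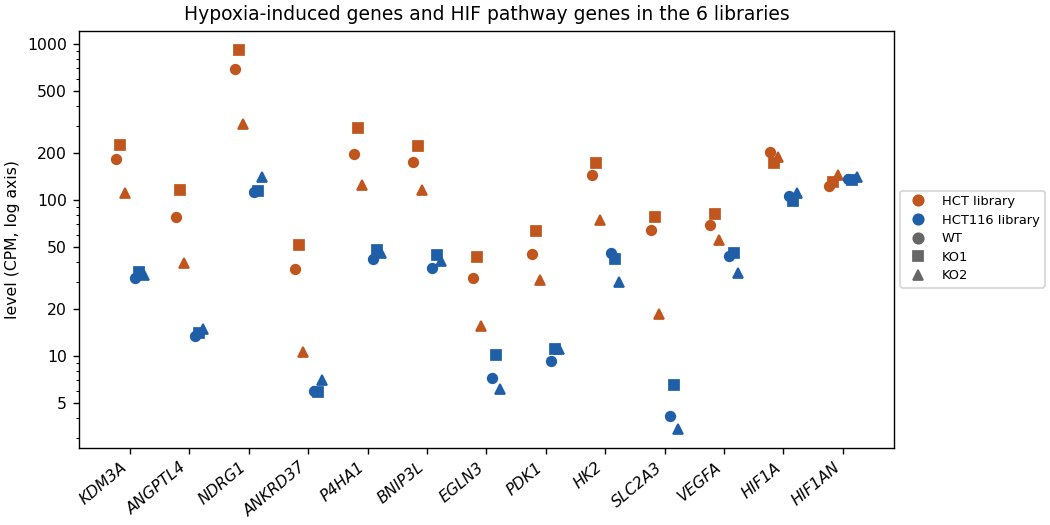
Level (vertical axis, CPM, log axis) of 13 hypoxia-induced, glycolytic and HIF pathway genes in the HCT libraries (orange) and HCT116 libraries (blue) of WT (circles), KO1 (squares) and KO2 (triangles). For KDM3A, ANGPTL4, NDRG1 and P4HA1 the orange points lie above the blue points and KO2 is the lowest orange point, while HIF1AN lies at the same height in both sets.

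The difference of the hypoxia genes was in all 3 pairs, with list medians of -1.10, -1.27 and -0.71, and it was smallest in the KO2 pair. Over the list it was barely changed by the offset for GC content and length, from -1.11 to -1.07, with 25 genes still lower and 1 higher. The 24 induced genes went from -1.17 to -1.21. The 6 HIF pathway genes went from -0.87 to -0.38, with 4 lower and 1 higher. Over all genes the share called lower was 32.0%, and 22.1% with the offset. Without the members of the glycolysis list, 25 of 28 genes were lower. The summed level of the 30 genes was 4600.1, 5782 and 3146 CPM in HCT and 2019, 2382 and 2070.2 CPM in HCT116.

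Transport and control genes of glycolysis were mostly lower, and the enzymes lay near the shares over all genes. Of 8 genes of transport and control, 6 were called lower and 1 higher, and of 17 enzymes, 6 lower and 4 higher. These enzyme shares were 35.3% and 23.5%, against 32.0% and 33.0% over all genes. The 25 genes had a median of -0.53 (-0.24 with the offset). PDK1, the kinase that keeps pyruvate out of the citric acid cycle, was at 45.4, 63 and 30.9 CPM in HCT and 9.36, 11.2 and 11.1 CPM in HCT116. HK2, the inducible hexokinase, was at 145, 173 and 74.9 CPM in HCT and 45.7, 42.1 and 29.9 CPM in HCT116. Both were lower without overlap, by 4.22-fold and 3.21-fold (edgeR adjusted p 3.6e-06 and 2.4e-06). LDHA, which makes lactate, was also lower (log2 -0.70), whereas LDHB, the subunit favouring pyruvate, was at 111, 91.1 and 96.5 CPM in HCT and 224, 147 and 181 CPM in HCT116 and was higher. SLC16A3, the lactate exporter MCT4, was at 503, 572 and 336 CPM in HCT and 1109, 943 and 664 CPM in HCT116 and was higher by 1.93-fold. ENO1 and PFKFB3 did not pass, at log2 -0.07 and 0.017.

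Genes of sterol uptake and transport were mostly lower. Among 19 cholesterol pathway enzymes, 9 were higher (47.4%) and 7 lower (36.8%), against 33.0% and 32.0% over all genes. Among 9 genes of uptake and transport 1 was higher and 6 lower. INSIG2, which retains the sterol sensor in the endoplasmic reticulum and is also on the hypoxia list, was at 51.4, 57.8 and 27.9 CPM in HCT and 12.9, 14.9 and 12 CPM in HCT116. STARD4, a cholesterol carrier, was at 73.5, 104 and 42.5 CPM in HCT and 19.3, 30.5 and 21.5 CPM in HCT116. Both were lower without overlap. MVD, an enzyme of the mevalonate pathway, was higher, at 91.3, 84 and 55.6 CPM in HCT and 228, 163 and 113 CPM in HCT116. With the offset, 7 of the 33 sterol genes were higher and 12 lower. Of 17 genes of fatty acid synthesis, 2 were higher and 8 lower, with a median of -0.37 (-0.22 with the offset).

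Genes of cell adhesion and invasion were mostly lower in HCT116. Of 24 mesenchymal and invasion genes, 15 were called lower (62.5%) and 2 higher (8.33%), against 32.0% and 33.0% over all genes. The median of the list was -0.49 (-0.53 with the offset). ITGA2, the collagen-binding integrin subunit, was at 149, 189 and 178 CPM in HCT and 30.7, 63.5 and 63.4 CPM in HCT116 (3.41-fold lower, edgeR adjusted p 2.5e-06). ITGA6, a laminin-binding subunit, was at 238, 310.4 and 152 CPM in HCT and 85.4, 107 and 77.3 CPM in HCT116. Both were without overlap. FN1 (fibronectin) was at 66, 45.1 and 102 CPM and 19.4, 11.7 and 47.9 CPM, lower in each pair but with overlap, since KO2 was the highest of its set in both. PLAU (urokinase) and MMP14, a membrane metalloprotease, were higher, by 1.41-fold and 1.38-fold. VIM (vimentin) was at 10.6, 4.53 and 14.3 CPM in HCT and 12.7, 5.09 and 23.1 CPM in HCT116 and did not pass (edgeR adjusted p 0.063). Fibroblast markers summed to 79.3 to 84.5 CPM in HCT and 52.5 to 71.8 CPM in HCT116, without overlap, mostly from COL1A1 and ACTA2. Of the 5 tested, 2 were called lower and 0 higher, with pair medians of -0.58, -0.32 and 0.39. DCN, a defining fibroblast gene, was at or near 0 in all libraries.

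Keratins and cadherin junctions went opposite ways within the epithelial list. Of 9 keratins, 7 were higher and 0 lower, and of 11 genes of cadherin adhesion and desmosomes, 1 was higher and 7 lower. CDH1 (E-cadherin) was at 150.3, 183 and 146 CPM in HCT and 63.7, 91.7 and 60.7 CPM in HCT116, DSG2 (desmoglein) at 315, 290.2 and 311 CPM and 109, 122 and 142 CPM, and DSP (desmoplakin) at 348, 317 and 287 CPM and 155, 154 and 161 CPM. No library of the HCT116 set reached the HCT set in any of these genes (edgeR adjusted p 4e-06, 3e-06 and 9.1e-06). KRT18, a simple epithelial keratin, was at 1054, 1361 and 847 CPM in HCT and 1691, 3146 and 1733 CPM in HCT116. KRT8, its partner, was at 3139, 4253 and 2612 CPM and 4417, 8114 and 4673 CPM. KO1 was the highest library of each set in both, and many processed copies of these keratins in the genome make their counts uncertain. KRT7 varied more between groups than between sets, at 13.6, 52.5 and 2.51 CPM in HCT and 36.4, 144 and 5.5 CPM in HCT116. The keratin median went from 0.86 to 0.57 with the offset, and that of the cadherin group from -0.58 to -0.33.

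Feedback genes of the MAPK pathway were lower. MAPK signalling induces phosphatases and Sprouty proteins that restrain it. Of 12 such genes, 8 were called lower (66.7%) and 1 higher (8.33%), against 32.0% and 33.0% over all genes. DUSP6, a phosphatase of ERK, was at 574, 589.9 and 475 CPM in HCT and 236, 245 and 322 CPM in HCT116 (2.05-fold lower, edgeR adjusted p 5.3e-05). SPRY4 was at 176, 154 and 141 CPM in HCT and 115, 86.6 and 119 CPM in HCT116. Both were without overlap. DUSP5 was lower in WT and KO1 and not in KO2, with pairs of -0.89, -1.11 and 0.14. Of 7 AP-1 genes 3 were lower (42.9%) and 2 higher (28.6%), and with the offset 5 were lower and 1 higher. FOS was at 16.1, 13.8 and 11.7 CPM in HCT and 6.29, 7.01 and 7.63 CPM in HCT116, and FOSL1 was at 89, 113 and 54 CPM and 242, 236 and 122 CPM, in the opposite direction. MYC did not pass (log2 -0.087, edgeR adjusted p 0.56). Over the 38 genes of the list the pair medians were -0.52, -0.47 and 0.066, so the KO2 pair lay near 0. The median over the 3 pairs went from -0.38 to -0.53 with the offset.

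Stem cell genes and targets of Wnt were lower, and Wnt feedback genes were divided. Of 10 stem cell genes and targets of Wnt, 8 were lower (80%) and 0 higher, against 32.0% and 33.0% over all genes. Their median was -0.70 (-0.60 with the offset). SOX9, a transcription factor of intestinal crypts, was at 343, 333 and 236 CPM in HCT and 140.0, 149 and 141 CPM in HCT116, and the sets did not overlap. Of 9 Wnt feedback genes 3 were higher (SP5, RNF43 and NOTUM) and 1 lower, and the median went from 0.29 to -0.31 with the offset, where 2 were higher and 3 lower. AXIN2, the usual reporter of Wnt activity, was at 30.5, 25.4 and 79.4 CPM and 54.2, 40.2 and 66.7 CPM and did not pass over the 3 pairs (edgeR adjusted p 0.066). Of 7 TGF-beta feedback genes 4 were lower and 0 higher, and of 10 TGF-beta targets 3 were lower and 3 higher. Their joint median went from -0.30 to -0.62 with the offset. Of 18 YAP and TEAD targets 9 were lower (50%) and 3 higher (16.7%), with a median of -0.60 (-0.32 with the offset). TEAD1 was at 182, 163 and 147 CPM in HCT and 60.7, 63.8 and 77.9 CPM in HCT116, while its relative TEAD4 was at 23.2, 23.5 and 22.5 CPM and 54.4, 47.3 and 43.7 CPM, so that these DNA-binding partners of YAP differed in opposite directions. CTGF was at 14.1, 18.8 and 4.34 CPM and 5.89, 7.71 and 4.74 CPM, lower in WT and KO1 and near equal in KO2.

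Several classes of long or AT-rich transcripts had more genes lower than higher, and most of the difference in their medians was absent with the offset. The giant cytoskeletal genes (dyneins, laminins, spectrins and others, median exon length 16991 bases) had 26 of 35 genes lower and 2 higher. Their median went from -0.93 to -0.28 with the offset. Long chromatin regulators had 24 of 42 lower and 6 higher, and their median went from -0.37 to 0.0046. Numbered zinc finger genes had 144 of 359 lower (40.1%) and 78 higher (21.7%), against 32.0% and 33.0% over all genes. Their median exon length was 5297 bases against 5134 over all genes, and their median GC content 44.2% against 48.7%. The median difference of the zinc finger genes went from -0.32 to 0.0084. Kinesins went from -0.64 to -0.24. KMT2C, a histone methyltransferase, was at 47.7, 50.1 and 46.7 CPM in HCT and 13.2, 16.2 and 22.6 CPM in HCT116, and CHD4, a nucleosome remodeller, was at 25.1, 26.6 and 29.5 CPM and 63.5, 50.9 and 55.3 CPM in the opposite direction. Of 44 components of PI3K, Akt and mTOR signalling, 21 were lower and 12 higher, and the median went from -0.28 to -0.038. Within it, FOXO1, IRS2 and DEPTOR were lower by 3.76-fold, 3.72-fold and 3.36-fold, and AKT1S1 and MLST8, both partners of mTOR, were higher by 2.88-fold and 2.7-fold.

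**Figure D3:**
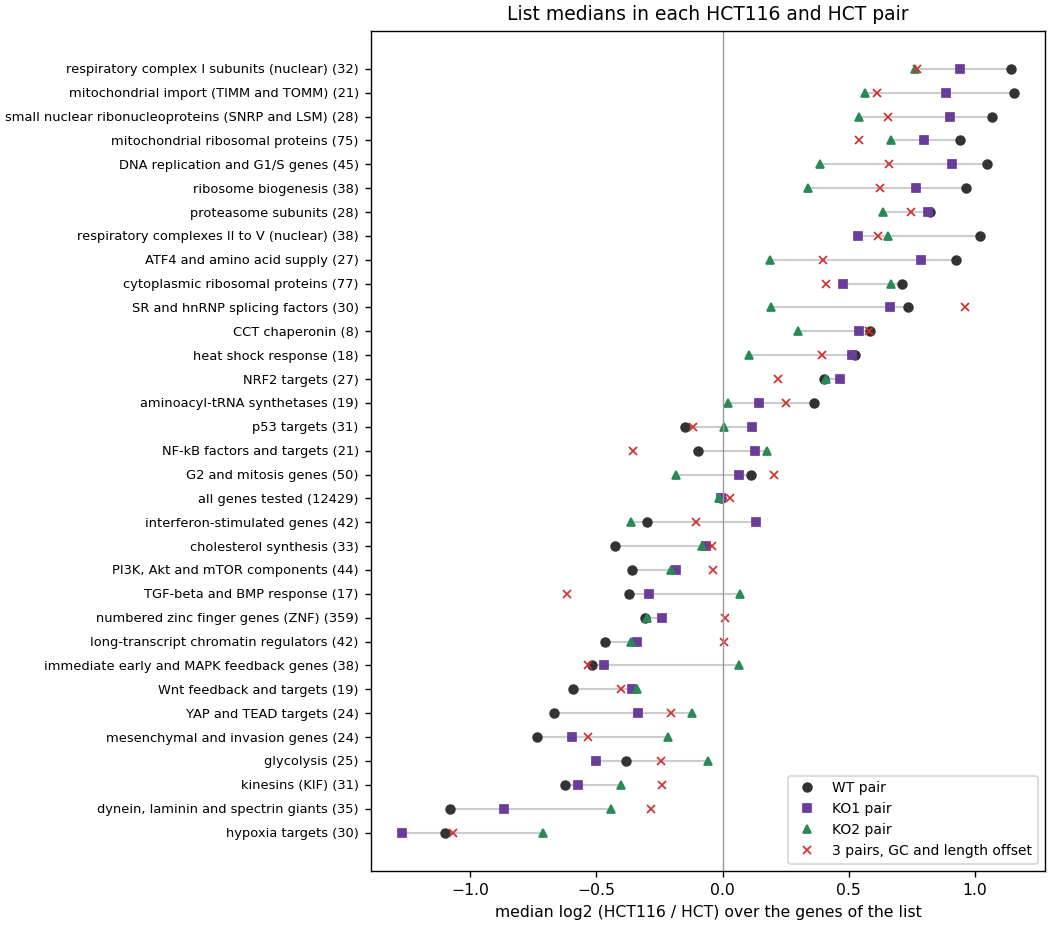
Median log2 difference (horizontal axis, HCT116 over HCT) over the genes of each list (vertical axis, number of genes tested in brackets) in the WT (circles), KO1 (squares) and KO2 (triangles) pairs, and over the 3 pairs with the GC and length offset (crosses). Hypoxia genes lie at the bottom, with pair medians of -1.10, -1.27 and -0.71 and the cross at -1.07. Giant cytoskeletal genes, zinc finger genes and chromatin regulators move towards 0 with the offset.

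Nuclear genes of mitochondria were higher in HCT116. Of 32 subunits of respiratory complex I, 29 were called higher and 0 lower, 15 of them by 2-fold or more. NDUFA1, an accessory subunit, was at 14.5, 10.4 and 18 CPM in HCT and 76.4, 59.1 and 55.3 CPM in HCT116 (4.47-fold, edgeR adjusted p 2.2e-06). NDUFB10 was at 75.2, 81.2 and 81.9 CPM in HCT and 279, 261 and 221 CPM in HCT116. Both were far from overlap. In complexes II to V 33 of 38 genes were higher and 0 lower, and COX6B1, a subunit of cytochrome c oxidase, was at 66, 66 and 71 CPM in HCT and 216, 183 and 202 CPM in HCT116. Mitochondrial ribosomal proteins had 62 of 75 higher and 1 lower. Import subunits had 17 of 21 higher and 2 lower. TOMM40, the import channel, was at 100.2, 76.5 and 122 CPM and 442, 339 and 277 CPM, whereas TOMM20, a receptor of the same complex, was lower, at 409, 473 and 314 CPM and 259, 296 and 232 CPM. These genes are short, with a median exon length of 2458 bases in complex I against 5134 over all genes. With the offset the medians went from 0.89 to 0.77 in complex I, from 0.68 to 0.62 in complexes II to V, from 0.83 to 0.54 in the mitochondrial ribosome and from 0.84 to 0.61 in import.

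Transcripts of the mitochondrial genome did not share this direction. Of 13, 5 were higher and 4 lower, and they took 5.34%, 5.94% and 8.90% of counts in HCT and 4.84%, 4.2% and 6.95% in HCT116. With the offset 1 was higher and 8 lower, and the median went from -0.11 to -0.57. MT-ND3, a complex I subunit, was at 673, 767 and 979 CPM in HCT and 1773, 1616 and 1821 CPM in HCT116. MT-CO1, a core subunit of cytochrome c oxidase, was at 15120.5, 18189 and 26395 CPM in HCT and 11513, 9749.7 and 18383 CPM in HCT116, lower in each pair with overlap between the sets. MT-ND4L was lower by 2.38-fold, but it overlaps MT-ND4 and shares its transcript, so its count depends on how overlapping reads were assigned.

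The machinery that makes ribosomes was higher. Of 77 cytoplasmic ribosomal proteins, 57 were higher and 1 lower, and RPL36 was at 208, 224 and 238 CPM in HCT and 983, 804 and 663 CPM in HCT116. Processed copies of these genes make single values uncertain. Of 38 ribosome biogenesis factors, 25 were higher and 3 lower. NHP2, a subunit of the pseudouridylation particle, was at 18.5, 18.8 and 22.6 CPM in HCT and 94.5, 76.7 and 55.3 CPM in HCT116 (3.7-fold, edgeR adjusted p 4.3e-06), with no overlap. HEATR1 and DDX21, both nucleolar, were lower by 1.66-fold and 1.33-fold. With the offset their log2 differences were -0.12 and -0.02. Medians went from 0.60 to 0.41 in ribosomal proteins and from 0.74 to 0.62 in biogenesis factors.

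Splicing factors were higher, and by more with the offset. SR and hnRNP proteins bind pre-mRNA and steer the choice of exons. Their genes are AT-rich (median 40.9% GC) and long (6442 bases). Even so, 22 of 30 were higher and 3 lower, and the median went from 0.54 to 0.96 with the offset, where 28 were higher and 0 lower. HNRNPD, which also binds AU-rich elements, was at 207, 221 and 269 CPM in HCT and 585, 485 and 393 CPM in HCT116. SRSF7 was at 101, 92.3 and 144 CPM in HCT and 283, 218 and 216 CPM in HCT116. Neither overlapped (edgeR adjusted p 7.7e-05 and 4.5e-05). Of the 5 kinases that phosphorylate SR proteins, which are counted in this list, 0 were higher and 2 lower, and with the offset 3 were higher and 0 lower. Core snRNP and LSM proteins had 23 of 28 higher and 3 lower (median 0.84, and 0.65 with the offset), with SNRPG at 12.7, 10.4 and 13.9 CPM in HCT and 50.3, 35.4 and 28.4 CPM in HCT116.

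Protein folding and turnover genes were higher. The proteasome had 26 of 28 subunits higher and 0 lower, including all 12 of its core. PSMA7 was at 175, 160.3 and 185 CPM in HCT and 464, 401 and 376 CPM in HCT116, and PSMB5, the subunit with chymotrypsin-like activity, at 133, 131 and 133 CPM and 338, 310.1 and 270.1 CPM. The CCT chaperonin, which folds actin and tubulin, had 7 of 8 subunits higher. Heat shock genes had 11 of 18 higher (61.1%) and 3 lower (16.7%), against 33.0% and 32.0% over all genes. HSPE1, the mitochondrial co-chaperone, was at 24.2, 21.6 and 30.5 CPM in HCT and 77, 55.9 and 49.5 CPM in HCT116, while HSF2, a heat shock factor, was lower, at 46.5, 45.2 and 50.7 CPM and 25.3, 28.5 and 33.5 CPM. With the offset the medians went from 0.73 to 0.75 in the proteasome, from 0.48 to 0.58 in the chaperonin and from 0.39 to 0.39 in heat shock genes. Genes of the endoplasmic reticulum did not go one way, with 7 of 27 higher and 11 lower.

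DNA replication genes were higher. Of 45 genes, 35 were called higher and 1 lower, 16 by 2-fold or more. The promoters of CDT1 and E2F1 are shown because E2F factors bind a TTTCCCGC, TTTGGCGC, TTTCGCGC or TTTGCCGC motif in such genes; capitals mark matches on either strand. They lie at chr16:88803539-88803788 (CDT1, plus strand) and chr20:33686386-33686635 (E2F1, minus strand) in GRCh38.p14, again the 250 bases before the start.
CDT1: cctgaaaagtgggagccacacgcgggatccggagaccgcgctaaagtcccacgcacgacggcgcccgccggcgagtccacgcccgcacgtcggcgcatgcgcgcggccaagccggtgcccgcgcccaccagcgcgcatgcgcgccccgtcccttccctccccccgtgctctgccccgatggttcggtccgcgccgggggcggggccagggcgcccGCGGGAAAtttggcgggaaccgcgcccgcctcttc
E2F1: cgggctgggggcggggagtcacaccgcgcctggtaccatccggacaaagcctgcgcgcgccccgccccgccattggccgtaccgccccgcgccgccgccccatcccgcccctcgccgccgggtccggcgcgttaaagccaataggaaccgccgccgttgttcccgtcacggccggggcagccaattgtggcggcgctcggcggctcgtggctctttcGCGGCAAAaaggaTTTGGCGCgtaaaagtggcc
The matches began at -35 in CDT1 and at -33 and -20 in E2F1. Such a motif lay in 13 of the 37 replication genes with a promoter in the table (35.1%), in 4.41% of the tested genes and in 2.79% of all promoters. It lay in 5.66% of genes higher by 2-fold or more and in 3.64% of genes lower by 2-fold or more.

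For licensing, the loading of the MCM helicase onto origins, 11 of 11 genes were higher. CDT1, a loading factor, was at 100.4, 109 and 80.5 CPM in HCT and 404, 299 and 211 CPM in HCT116 (3.07-fold, log2 1.62, SE 0.13, edgeR adjusted p 2.4e-06). MCM5 was at 99.7, 107 and 152 CPM in HCT and 432, 349 and 325 CPM in HCT116, and MCM2 at 151, 143 and 192 CPM and 449, 355 and 326 CPM. In each of these genes every HCT116 library was above every HCT library. E2F1, which drives entry into S phase, was at 32.5, 39.8 and 35.5 CPM in HCT and 120.4, 96.2 and 72.7 CPM in HCT116. At the fork 18 of 25 genes were higher and 1 lower. PCNA, the sliding clamp, was at 188, 192 and 261 CPM in HCT and 406, 399 and 373 CPM in HCT116. RFC1, the large subunit of the clamp loader, was the gene called lower, by 1.36-fold, and lay at log2 0.045 with the offset. TYMS, thymidylate synthase, was at 54.2, 51.5 and 60.3 CPM in HCT and 138, 129 and 92.5 CPM in HCT116. With the offset 41 of the 45 genes were higher and 0 lower, with a median of 0.66 against 0.79. Genes of G2 and mitosis were evenly split, at 16 higher and 16 lower of 50, but with the offset 20 were higher and 4 lower, and the median went from 0.0012 to 0.20. CDC20 was at 233, 228 and 208 CPM in HCT and 639, 494 and 413 CPM in HCT116, and ASPM at 71, 68.6 and 62.9 CPM and 36.8, 35.4 and 33.1 CPM in the opposite direction.

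**Figure D4:**
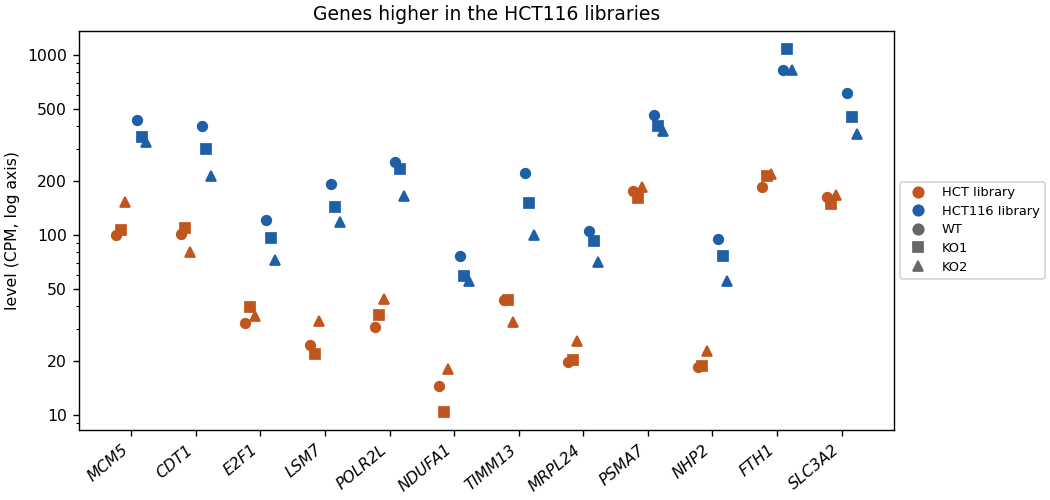
Level (vertical axis, CPM, log axis) of 12 genes that were higher in the HCT116 libraries (blue) than in the HCT libraries (orange), in WT (circles), KO1 (squares) and KO2 (triangles). No orange point reaches a blue point of the same gene, and the points of MCM5 are closer in the KO2 pair, at 2.14-fold, than in the WT pair, at 4.32-fold.

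Stress programmes were higher in part. Of 27 genes of the ATF4 response and amino acid supply, 18 were higher (66.7%) and 3 lower (11.1%). The shares over all genes were 33.0% and 32.0%. The median of the ATF4 list was 0.65 (0.40 with the offset). ATF4 itself, the transcription factor of the response, was at 280.3, 267 and 328 CPM in HCT and 579, 526 and 490.1 CPM in HCT116, and SLC3A2, a heavy chain of amino acid transporters, at 163, 148 and 166 CPM and 609, 449 and 362 CPM. Both were without overlap. DDIT3 and ASNS, commonly used targets, did not pass, at edgeR adjusted p 0.64 and 0.092. Of 27 NRF2 genes 15 were higher (55.6%) and 2 lower (7.41%), with a median of 0.35 (0.22 with the offset). FTH1, the ferritin heavy chain, was at 185, 213 and 217 CPM in HCT and 820.0, 1078 and 826 CPM in HCT116 (4.4-fold), although processed copies make its count uncertain. KEAP1, which holds NRF2 back, was also higher, at 67.6, 60.2 and 90.1 CPM and 253, 212 and 194 CPM. TFRC, the transferrin receptor, was lower, by 1.3-fold, and lay at log2 0.18 with the offset. Of the 3 iron uptake genes tested, 1 was higher and 2 lower, and 0 were called with the offset.

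The p53, interferon and NF-kB lists were spread around 0, and HOX and S100 genes were mostly higher. Of 31 p53 targets 11 were higher and 7 lower, with a median of 0.063 (-0.12 with the offset). TP53I3 was at 2.84, 2.73 and 4.54 CPM in HCT and 19.2, 23 and 17.8 CPM in HCT116, while CDKN1A (p21) was at 315, 514 and 255 CPM and 317, 685 and 426 CPM with overlap and MDM2 did not pass (edgeR adjusted p 0.057). Interferon-stimulated genes had 7 of 42 higher and 12 lower, and NF-kB genes 8 of 21 higher and 4 lower. With the offset the interferon list had 3 higher and 12 lower, and the NF-kB list 3 higher and 8 lower. Over all genes 33.0% were higher and 32.0% lower in the main fit, and 28.0% and 22.1% with the offset. Of 26 HOX genes 15 were higher (57.7%) and 3 lower (11.5%), and of 11 S100 genes 9 were higher (81.8%) and 0 lower. Both families are short or GC-rich, and their medians went from 0.50 to 0.087 and from 0.72 to 0.19 with the offset. S100A6 was at 508, 920.2 and 430.5 CPM in HCT and 1316, 2473 and 1291 CPM in HCT116, with KO1 the highest of each set.

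The KO2 pair stood apart from the others. A fit with a term for each group in turn asked whether its set difference departs from that of the other groups, with 1 residual degree of freedom. Each group has 1 library per set, so a departure has no replicate. The p-values of this fit borrow spread from other genes and do not measure replicate spread of the departure. For KO2 edgeR called 702 genes (5.65%), of which 344 were more positive (2.77%) and 358 more negative (2.88%). For KO1 it called 3 genes (0.0241%) and for WT 0 genes (0%), where 393 had an unadjusted p under 0.05 and DESeq2 also called 0. DESeq2 called 78 genes for KO2 and 0 for KO1. In 672 of the 702 genes the KO2 departure was opposite in sign to the mean difference of WT and KO1. The KO2 pair kept the sign of the others in 511 of these and had the opposite sign in 161. The WT and KO1 difference is subtracted in the departure, so opposite signs are favoured by construction. The share over all genes was not taken, and no conclusion is drawn from the 672.

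Hypoxia and replication genes were among those with a smaller KO2 difference. The shares over all genes, beside which these counts stand, were 2.77% more positive and 2.88% more negative in KO2. Of 30 hypoxia genes 12 were more positive in KO2 and 0 more negative. NDRG1 departed by 1.70 on the log2 scale, with pairs of -2.63, -3.01 and -1.12. Of 45 replication genes 22 were more negative and 0 more positive, and MCM5 had pairs of 2.11, 1.71 and 1.10. SR and hnRNP genes had 11 of 30 more negative, and MAPK genes 11 of 38 more positive. SAT1, which acetylates polyamines, was at 1237, 565 and 1202 CPM in HCT and 254, 100.2 and 825 CPM in HCT116. The KO2 library of the HCT116 set was above the KO1 library of the HCT set, so these overlapped. MUC3A had pairs of -1.02, -0.88 and -0.29, with a KO2 departure of 0.66. These counts are not independent of the narrower spread of all genes in the KO2 pair, which had an SD of 0.682.

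Several clock genes reversed in KO2. The circadian clock is a loop in which CLOCK and ARNTL drive PER, CRY and NR1D1, whose products repress it. The list of 20 clock genes was written after their values were seen, and 18 were tested. NR1D1, the repressor REV-ERB alpha, was at 114, 139.8 and 46 CPM in HCT and 40.3, 52.9 and 109.5 CPM in HCT116. It was lower in HCT116 in WT and KO1 and higher in KO2, and its KO2 departure was 2.70 on the log2 scale. NR1D1 overlaps THRA on the opposite strand, and whether the counting used strand is not given. DBP, a clock output factor, was at 25, 39 and 12.1 CPM in HCT and 20.8, 23.6 and 63 CPM in HCT116, with a departure of 2.89. PER1 was at 66.9, 79.7 and 55.3 CPM in HCT and 48.6, 39.3 and 108 CPM in HCT116. In all of these the KO2 library of the HCT116 set was above the KO2 library of the HCT set, opposite to the other pairs. NR1D2 and TEF departed the same way, by 1.31 and 1.27, and CRY1 the other way, by -0.96. CLOCK and ARNTL were not called for a departure. Both were lower in HCT116 over the 3 pairs, at log2 -0.65 and -0.57 (0.15 and -0.13 with the offset). Over the 3 pairs 9 of the 18 genes were lower (50%, against 32.0% over all genes) and 0 higher, and with the offset 4 were lower. Of the 18 genes 7 departed to the positive side in KO2 and 1 to the negative side, against 2.77% and 2.88% over all genes.

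**Figure D5:**
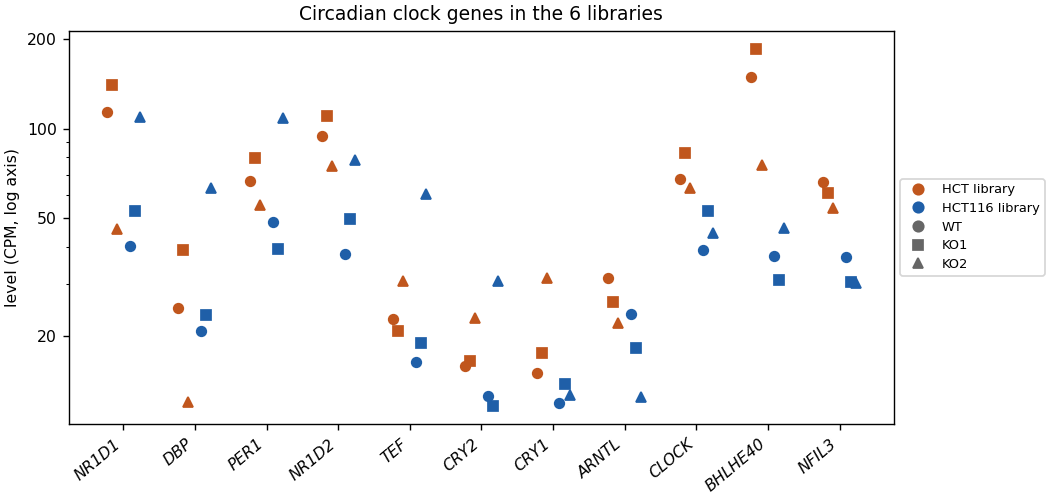
Level (vertical axis, CPM, log axis) of 11 circadian clock genes in the HCT libraries (orange) and HCT116 libraries (blue) of WT (circles), KO1 (squares) and KO2 (triangles). For NR1D1, DBP and PER1 the blue triangle lies above the orange triangle, while blue circles and squares lie below the orange ones.

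Some genes were read in one set only. With 0 reads in the other set, 475 genes were read in HCT only and 127 in HCT116 only, and 171 and 37 of these had more than 3 reads, the number that a count of 0 allows. TLR10, a Toll-like receptor, had 13, 4 and 11 reads in the HCT libraries and was at least 8.54-fold higher there by total counts, taking 3 reads over the HCT116 set as the floor. MTTP, which loads lipid onto apolipoprotein B, had 3, 10 and 14 reads in HCT. HIST1H4D, a replication-dependent histone, had 3, 7 and 4 reads in HCT116 and was at least 5.10-fold higher there. These are low counts, and 65 of the 475 genes and 16 of the 127 were read in all 3 libraries of their set.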

How the data were processed

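Per the file headers, the deposited tables give a raw read count per gene for each library. HTSeq 0.6.0, STAR, DESeq2 and the build hg18 are listed in the submitters' processing notes, without roles. A further 40 per-sample columns were not used. The tables were joined on gene ID, where WT counts were identical in all 15284 shared genes. Genes with a summed count of at least 60 were tested with edgeR 4.0.16 in R 4.3.3: TMM factors, a quasi-likelihood test on the set with the group as block (2 residual degrees of freedom) and Benjamini-Hochberg adjustment at 0.05. CPM use the TMM library sizes, with a prior count of 2 for log2 values. DESeq2 1.42.0, limma 3.58.1, other scalings and filters, single libraries left out and a loess offset for GC content and exon length were the alternatives. Gene properties came from GENCODE 29, which is not of the files' build, and no coordinates were converted. The set test was run on simulated counts with known changes in a small share of the genes, balanced in direction. The simulation held no group effect and no trend on GC content or length. It therefore does not give the error rate where most genes differ, as here. Total counts per library were 13638724 to 17829599.

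The comparison and the gene lists were chosen with earlier results of these data known, and the circadian list was written after its values were seen. Genes were named by rule: MUC3A, the 12 largest non-overlapping differences each way (mean log2 CPM of at least 3), the 6 most read 2-fold genes each way, up to 4 called members each way per list (mean log2 CPM of at least 1), the top 3 each way per group term and the 5 most read genes of each set alone. Some genes that the rule names are not reported here. Other genes named were chosen after their values were seen.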

Additional observations from a re-analysis of the deposited data

Results flagged for a closer look

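The set difference depended on the group in 702 genes for KO2 and in 3 genes for KO1, by the group term of the edgeR fit. The KO1 genes were KRT13, a keratin of stratified epithelium, with a departure of 1.95 on the log2 scale, VGF, a secreted neuropeptide precursor, with -1.76, and DBP with -1.80. The KO1 term sets KO1 against WT and KO2 together. DBP was lower in HCT116 in both WT and KO1 and higher in KO2, so its KO1 departure includes the reversed KO2 pair. KRT13 was at 2.45, 19.4 and 9.24 CPM in HCT and 4.52, 145 and 18.4 CPM in HCT116, so that the KO1 library of the HCT116 set was far above the rest. VGF was at 41.3, 71 and 9.71 CPM in HCT and 35.7, 26.5 and 18.9 CPM in HCT116. None of the KO1 genes was called with DESeq2 or with filterByExpr.

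For KO2, NR1D1 departed by 2.70, DBP by 2.89 and PER1 by 1.71 to the positive side. To the negative side, TOE1, a deadenylase, departed by -1.93 and ZWINT, a kinetochore protein, by -1.29. ZWINT was at 39.9, 45.1 and 71.7 CPM in HCT and 165, 153 and 110.0 CPM in HCT116. TOE1 was at 6.85, 4.13 and 16.1 CPM in HCT and 37.8, 31.2 and 26.9 CPM in HCT116.

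BMP5, a bone morphogenetic protein, was listed for KO2 alone and was outside the genes tested. It had 112 reads in the HCT library of KO2 and 67 in the HCT116 library, 179 in all, against 0 in both WT libraries. No search for outlying libraries was possible, with 3 libraries in a set.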

How the results depend on the processing

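The WT, KO1 and KO2 pairs were the block of the test. By replicate number, no paired analysis was possible because the count columns carry none. Of the counts of genes, 101 values under an alternative stayed within 1.5 times. Of the values of single genes, 591 kept their direction and their side of the threshold and 1 was lost, SAT1 without the group term. These genes were MUC3A and genes chosen for the largest or most-read called differences in these data. Most were therefore likely to stay called, and the count does not speak for other genes. With the GC and length offset 1199 genes passed 2-fold, 496 higher and 703 lower. For KO1 the departing genes came to 0 with filterByExpr and 0 with DESeq2, and for KO2 to 78 with DESeq2. Under the offset the medians of these lists of at least 5 genes changed sign: p53 targets -0.12, metallothioneins -0.075, NF-kB genes -0.35, epithelial junctions -0.18, chromatin regulators 0.0046, iron handling 0.062, epithelial identity -0.10, replication-dependent histones -0.17, polyamine and one-carbon genes -0.014, lysosome and autophagy genes -0.075 and zinc finger genes 0.0084. The lowest GC bin came to 0.0057. The highest GC bin came to 0.061, the shortest and longest genes to 0.060 and -0.019 and the SD over windows to 0.169. With a summed count of 600 or more, HLA genes came to -0.095 and collagens to 0.085. With upper quartile factors CCDC genes came to -0.00086, the lowest and highest GC bins to -0.66 and 0.54, the shortest and longest to 0.43 and -0.65, and 10 lists lay at or below -0.5. Leaving out 1 library moved p53 targets between -0.093 and 0.10, collagens between -0.31 and 0.10 and the number of such lists between 5 and 10. The cause was not tested. Genes near 60 reads are limited by depth, and the floor of 3 reads covers counting error only.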
